A study of Mus musculus with 8 samples.

Results

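The genes described here sense bacterial and viral products or carry that signal inward: Ripk2, Nod1, Nod2, Tlr2, Tlr3, Tlr4, Casp4, Myd88 and Il1r1. They were chosen by name, with earlier results of these data known, and make up 9 of the 45706 gene rows of the count table. All 9 passed the filter on low counts (at least 10 counts in at least 2 libraries). The RNA was the chromatin-associated fraction, which holds transcripts still bound to or near their genes, from primary embryonic fibroblasts of C57BL/6 mice. Wild-type (WT) cells were compared with crel-/-rela-/- cells (KO), which lack 2 subunits of the transcription factor NF-kB, cRel and RelA. Both genotypes were kept overnight in 0.5% bovine calf serum and then exposed to the NF-kB-activating cytokine TNF (tumour necrosis factor, 10 ng/ml) for 0, 15, 45 or 60 min. There was 1 library for each genotype and time, 8 in all, with no untreated library at 15, 45 or 60 min, so effects of TNF and of time or handling cannot be told apart. The sources used here do not say how the 2 alleles were inactivated or whether each library pools embryos.

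Toll-like receptors (TLRs) are membrane receptors that bind microbial lipids, proteins or nucleic acids, and most of them signal through the adaptor Myd88. Nod1 and Nod2 are cytosolic receptors for fragments of bacterial cell wall peptidoglycan, and both signal through the kinase Ripk2. Caspase-11, encoded by Casp4 in the mouse, binds lipopolysaccharide in the cytosol and cleaves gasdermin D, which leads to pyroptosis. These routes, like the interleukin-1 receptor encoded by Il1r1, end in activation of NF-kB or in inflammatory cell death, and fibroblasts carry several of these receptors.

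The libraries held 12359817 to 15607331 counts, of which 58.9% to 70.6% fell on 3 gene models (Gm26917, Gm42418 and Malat1). The 10 fibroblast markers were all detected in all 8 libraries, with summed levels of 9020 to 13299 CPM (counts scaled to library size, with TMM factors). The 17 macrophage markers summed to 84.2 to 118 CPM in the WT libraries and to 7.39 to 9.35 CPM in the KO libraries. In KO, Adgre1 was at 0 counts at 0, 15 and 45 min, and Tyrobp at 15, 45 and 60 min. The gap was not even over the list. Over the 4 times Cd68 had 131, 119, 88 and 75 counts in WT, against 93, 77, 67 and 78 in KO. Fcer1g had 30, 31, 37 and 26 counts in WT, against 18, 11, 13 and 22 in KO. Cd68 alone gave 93 of the 156 macrophage marker counts in KO at 0 min and 78 of 117 at 60 min. The KO library at 0 min stood apart in cartilage markers, at 398 CPM against 20.2 to 49.9 CPM in the later KO libraries and 7.26 to 11.5 CPM in WT. Epithelial markers stood at 7.29 CPM there, against 0.441 to 1.05 CPM in the later KO libraries. Endothelial markers were low in both genotypes but higher in KO, at 9.09 to 14.7 CPM against 3.68 to 5.30 CPM in WT. In such mixed samples, fewer cells of a type and less RNA per cell cannot be told apart.

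Promoter sequences from RefSeq (build GRCm38.p6) were searched for the letters GGGNNNNNCC on both strands, within the 250 bases before each transcript start. These letters are a loose form of the sites that NF-kB binds, and 45.8% of all 32851 windows in the table held at least 1 match, while 3.9% held the stricter NF-kB consensus. Of the 9 genes, 7 had an entry, and Ripk2 and Tlr4 had none. The windows below belong to 4 genes that rose in WT after TNF, and they show how differently these genes are equipped with such letters. Each is written 5′ to 3′ on the gene's own strand and stops where the deposited gene model begins, with matches on either strand in capitals.
Casp4, chr9:5308599-5308827, plus strand: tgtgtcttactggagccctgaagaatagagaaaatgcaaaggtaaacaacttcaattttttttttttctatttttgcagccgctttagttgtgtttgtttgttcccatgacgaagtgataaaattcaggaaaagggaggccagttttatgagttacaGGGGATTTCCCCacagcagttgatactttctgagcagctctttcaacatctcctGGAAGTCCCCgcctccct
Tlr2, chr3:83841768-83841858, minus strand: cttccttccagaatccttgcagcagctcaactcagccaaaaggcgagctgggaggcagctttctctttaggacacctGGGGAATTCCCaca
Nod1, chr6:54972613-54972862, minus strand: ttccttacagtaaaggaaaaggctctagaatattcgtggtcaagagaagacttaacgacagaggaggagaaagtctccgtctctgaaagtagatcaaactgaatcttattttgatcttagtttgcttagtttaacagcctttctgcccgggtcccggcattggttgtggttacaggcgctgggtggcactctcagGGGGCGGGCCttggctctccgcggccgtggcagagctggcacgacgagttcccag
Nod2, chr8:88647097-88647314, plus strand: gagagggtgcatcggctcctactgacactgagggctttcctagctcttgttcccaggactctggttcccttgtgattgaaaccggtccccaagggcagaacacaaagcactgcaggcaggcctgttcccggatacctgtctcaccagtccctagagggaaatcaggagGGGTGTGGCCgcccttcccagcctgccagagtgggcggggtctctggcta
The first capital block in Casp4 spans positions -93 to -82, counted from the listed start, and holds overlapping matches on both strands, 3 of which meet the consensus. The second, at -39 to -30, matches only the loose letters. In Tlr2 the block spans positions -173 to -163, with 3 overlapping matches that all meet the consensus. Nod1 and Nod2 each held 1 loose match and none of the consensus. Tlr3, which did not pass the test after TNF, also held a consensus match (GGGAGTTTCC), at -211 to -202. Myd88 had no match of either kind. Il1r1 had none before its outermost start and 1 consensus match (GGGGCATTCC) before a second start inside the gene. A match describes letters only, since no binding was measured here.

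In WT cells, 6 of the 9 genes rose at 45 and 60 min, and the largest rise was that of Ripk2. The 6 were Ripk2, Nod1, Nod2, Tlr2, Casp4 and Il1r1, while Tlr4 fell and Tlr3 and Myd88 did not pass the test. The late response was the mean of the 45 and 60 min libraries against 0 min, tested with edgeR's quasi-likelihood test and Benjamini-Hochberg adjustment over 15049 genes, with a threshold of 0.05. Among all genes tested, 4.17% were called higher and 1.31% lower. The median log2 fold change of the 9 genes was 1.21, against -0.0039 for all genes. In KO cells none of the 9 was called in either direction by edgeR, DESeq2 or limma-voom, where by edgeR 1.32% of all genes were called higher and 0.518% lower. At an unadjusted p under 0.05, 4 of the 9 were lower in KO (Ripk2, Tlr3, Casp4 and Myd88) and none was higher. No share of all genes is given at that threshold, here or below, so such counts cannot be set against one. These falls are all against the single KO 0 min library, which stood apart in cartilage markers. Single libraries compared by counting error alone gave the time course. The rule asked for a ratio of at least 2-fold, an interval that left out 1 and no fewer than 20 counts on the higher side. In WT, 1 of the 9 genes was higher than at 0 min by 15 min, where 0.857% of all genes met the rule, 5 by 45 min (4.13%) and 6 at 60 min (5.01%). Tlr4 was the only one of them lower at 45 min (2.84% of all genes) and at 60 min (3.35%). In KO, Tlr3 and Casp4 were lower than at 0 min at both 45 min (2.78%) and 60 min (3.22%). The 45 and 60 min libraries stood in for replicates of a late group, so the p-values measure the spread between those 2 times and not between cultures.

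**Figure D1:**
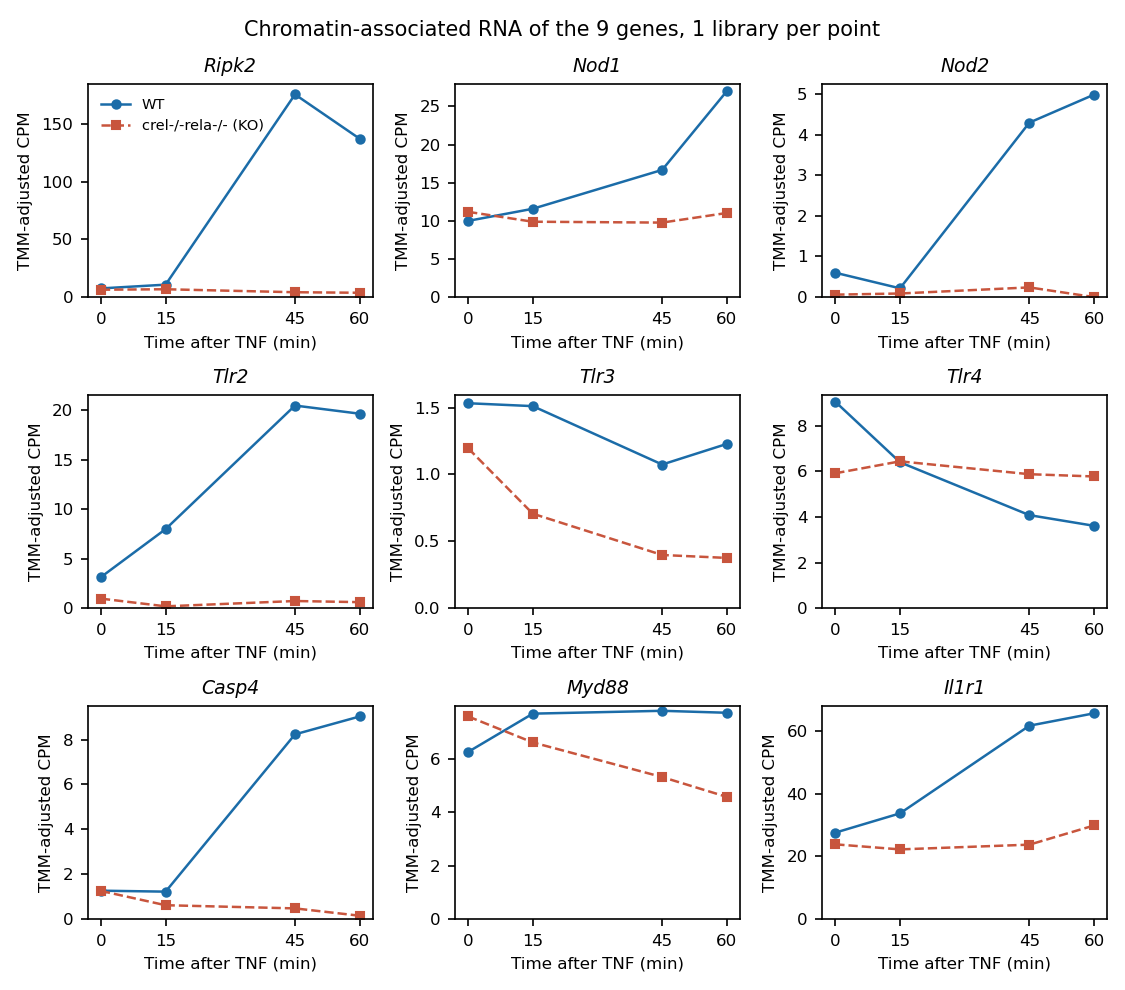
Level of each gene (TMM-adjusted CPM, vertical axis from 0, scaled per panel) against time after TNF in min, with 1 library per point, blue circles for WT and red squares for crel-/-rela-/- (KO). Ripk2 reached 176 CPM in WT at 45 min and stayed at 3.75 to 6.79 CPM in KO, while Tlr4 was lower in WT at 45 and 60 min than at 0 min.

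Ripk2, the kinase shared by Nod1 and Nod2 (chromosome 4, 16122733 to 16163647, mm10, minus strand), had 113, 150, 2458 and 1903 counts in WT at 0, 15, 45 and 60 min. This is 7.53, 10.8, 176 and 137 CPM. In KO it had 107, 77, 53 and 50 counts, or 6.40, 6.79, 4.21 and 3.75 CPM. The genotypes were close at 0 min and far apart at 45 and 60 min. In WT the log2 fold change was 4.38 ± 0.25 (SE; adjusted p 1.49e-06, edgeR). In KO it was -0.68 ± 0.25 (adjusted p 0.185, edgeR), with both late libraries below the 0 and 15 min libraries. The difference between the genotypes' responses was 5.06 ± 0.34 (adjusted p 4.76e-05, edgeR), and it passed the threshold under all 16 alternatives run. In WT, Ripk2 was 1.28-fold lower at 60 than at 45 min, a log2 ratio of -0.36 with a counting interval of -0.44 to -0.27 (exact Clopper-Pearson, 95%). Gm22690, a 110-base gene model inside Ripk2 on the same strand that shares 0 exon bases with it, had exonic counts of 2, 0, 32 and 24 in WT, against 0, 0, 0 and 2 in KO.

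The genes most like Ripk2 over the 8 libraries, by Pearson correlation of log2(CPM + 1) among 7335 genes averaging at least 100 counts, were Tnip1 (0.996), Birc3 (0.995), Ifnar2 (0.992), Taf15 (0.991) and Birc2 (0.989). Tnip1 encodes a partner of the NF-kB inhibitor A20, Birc3 and Birc2 the ubiquitin ligases cIAP2 and cIAP1, and Ifnar2 a chain of the type I interferon receptor. Birc3 had exonic counts of 167, 225, 1199 and 960 in WT, against 145, 99, 90 and 77 in KO, the same order over the 8 libraries as Ripk2 (Spearman 1.0). By Spearman correlation Birc3 ranked 1 among the 7335 genes, but Tnip1 ranked 8, Ifnar2 and Taf15 68, and Birc2 118. Apart from Birc3, the list therefore depends on the measure. These libraries share genotype and time, so the correlations are descriptions of 8 points.

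Nod1, the receptor for peptidoglycan fragments typical of Gram-negative bacteria (chromosome 6, 54923942 to 54972612, minus strand), stood at 9.99, 11.6, 16.7 and 27.0 CPM in WT. In KO it stood at 11.2, 9.88, 9.77 and 11.03 CPM, so the genotypes overlapped at 0 and 15 min and both late WT libraries were above every KO library. The late log2 fold change was 1.13 ± 0.28 in WT (adjusted p 0.0356, edgeR) and -0.10 ± 0.28 in KO (adjusted p 0.883, edgeR). Unlike Ripk2, Nod1 was higher at 60 than at 45 min in WT, by 0.70 on the log2 scale (interval 0.46 to 0.94). The WT call ended in 6 of 16 alternatives, and without the WT 60 min library the value was 0.73 (adjusted p 0.149). The difference between the responses was 1.23 ± 0.39 and did not pass (adjusted p 0.333, edgeR), although it did without the WT 45 min library (1.52, adjusted p 0.0284).

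Nod2, the receptor for muramyl dipeptide (chromosome 8, 88647315 to 88688474, plus strand), gave 9, 3, 60 and 69 counts in WT, against 1, 1, 3 and 0 in KO, the fewest of the 9 genes in both 0 min libraries. In WT this is 0.599, 0.216, 4.29 and 4.98 CPM. Both late WT libraries were above all the others. The WT log2 fold change was 2.93 ± 0.56 (adjusted p 0.00905, edgeR), and the call ended with DESeq2 and without the filter. Nod2 passed the filter only through the WT 45 and 60 min libraries, the ones in which it was called high. Without either of them it was not tested, so its WT and genotype calls are not independent of the filter. In KO it was 0.86 ± 1.57 (adjusted p 0.82, edgeR) and rested on at most 3 counts per library. The difference between responses was 2.07 ± 2.22 (adjusted p 0.961, edgeR), so at this depth a difference between the Nod2 responses was not detectable.

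Among the TLRs, Tlr2, which binds bacterial lipopeptides together with Tlr1 or Tlr6 (chromosome 3, 83836272 to 83841767, minus strand), had 47, 111, 286 and 272 counts in WT. This is 3.13, 7.98, 20.5 and 19.6 CPM. In KO it had 16, 2, 9 and 8 counts, or 0.956, 0.176, 0.715 and 0.600 CPM. Every WT library was above every KO library, the one at 0 min included. Tlr2 was also the only 1 of the 9 that was at least 2-fold higher in WT at 15 min, at 2.55-fold (log2 interval 0.85 to 1.87). The late WT response was 2.68 ± 0.27 (adjusted p 0.000101, edgeR), and the KO response was -0.54 ± 0.46 (adjusted p 0.595, edgeR).

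Tlr4, the receptor for lipopolysaccharide (chromosome 4, 66827584 to 66930284, plus strand), moved the other way. In WT it stood at 9.06, 6.40, 4.08 and 3.61 CPM and in KO at 5.92, 6.44, 5.88 and 5.78 CPM. The KO values lay between the highest and lowest WT values. The late log2 fold change was -1.23 ± 0.25 in WT (adjusted p 0.012, edgeR) and -0.02 ± 0.25 in KO (adjusted p 0.979, edgeR). The WT call ended with DESeq2, without the filter and with 15 min as the baseline, and the difference between responses, -1.21 ± 0.36, did not pass (adjusted p 0.271, edgeR). The genes most like Tlr4 over the 8 libraries, among 7336, were Fam171a1 (Pearson 0.957), Rnf217, Armcx4, Osr1 and Npr3. By Spearman correlation they ranked 35, 265, 9, 35 and 35, so this list depends on the measure.

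Tlr3, the endosomal receptor for double-stranded RNA (chromosome 8, 45395665 to 45410608, minus strand), had exonic counts of 23, 21, 15 and 17 in WT, against 20, 8, 5 and 5 in KO. Its late log2 fold change was -0.41 ± 0.46 in WT (adjusted p 0.688, edgeR) and -1.61 ± 0.56 in KO (adjusted p 0.161, edgeR). Every KO library after TNF was below every WT library, and the 2 genotypes were within counting error of each other at 0 min (log2 ratio -0.36, interval -1.30 to 0.57).

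Casp4 (chromosome 9, 5308828 to 5336783, plus strand) had 19, 17, 115 and 125 counts in WT, or 1.27, 1.22, 8.23 and 9.03 CPM. In KO it had 21, 7, 6 and 2 counts, or 1.26, 0.618, 0.476 and 0.150 CPM. The genotypes were equal at 0 min within counting error (log2 ratio -0.01, interval -0.98 to 0.96) and did not overlap at 45 and 60 min. The late WT response was 2.76 ± 0.40 (adjusted p 0.00149, edgeR). The KO response was -1.99 ± 0.59 (adjusted p 0.108, edgeR). The difference between responses was 4.75 ± 0.72 (adjusted p 0.0102, edgeR). Its neighbours on both sides are also inflammatory caspase genes: Casp1, 1563 bases away, had 3 to 9 counts in WT, against 0 in every KO library. Casp12, 8647 bases away, had exonic counts of 259, 213, 157 and 181 in WT, against 194, 127, 99 and 120 in KO, and its late WT value was -0.50 ± 0.21 (adjusted p 0.203, edgeR).

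Myd88, the adaptor of most TLRs and of the interleukin-1 receptors (chromosome 9, 119335934 to 119341411, minus strand), stood at 6.26, 7.69, 7.80 and 7.73 CPM in WT. In KO it stood at 7.59, 6.62, 5.32 and 4.58 CPM. The late log2 fold change was 0.31 ± 0.25 in WT (adjusted p 0.558, edgeR) and -0.62 ± 0.25 in KO (adjusted p 0.215, edgeR). Its exons share 290 bases with those of Acaa1a on the opposite strand, and the sources used here do not give the strand setting of the counting, so Myd88 counts are uncertain.

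Il1r1, the signalling receptor for interleukin-1 (chromosome 1, 40225080 to 40317257, plus strand), had the highest CPM of the 9 genes in 6 of the 8 libraries. In WT it stood at 27.6, 33.7, 61.7 and 65.7 CPM. In KO it stood at 23.8, 22.2, 23.7 and 29.9 CPM. Both late WT libraries were above all the others. The late log2 fold change was 1.21 ± 0.20 in WT (adjusted p 0.00316, edgeR) and 0.17 ± 0.19 in KO (adjusted p 0.694, edgeR), and the difference, 1.04 ± 0.27, did not pass (adjusted p 0.168, edgeR). The WT call ended when libraries were scaled by total counts (adjusted p 0.0743). Il1rl2, the interleukin-36 receptor gene 7353 bases away, had a like course: 375, 454, 757 and 789 counts in WT, against 402, 295, 392 and 406 in KO, with a late WT change of 1.15 ± 0.18 (adjusted p 0.00231, edgeR). Gm38070, a 6480-base gene model inside Il1r1 on the same strand, shares 0 exon bases with it. It had 163, 208, 367 and 223 counts in WT, against 107, 71, 108 and 73 in KO. Unlike Il1r1, it fell from 45 to 60 min in WT, and its late WT change of 0.96 ± 0.31 did not pass (adjusted p 0.102, edgeR).

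**Figure D2:**
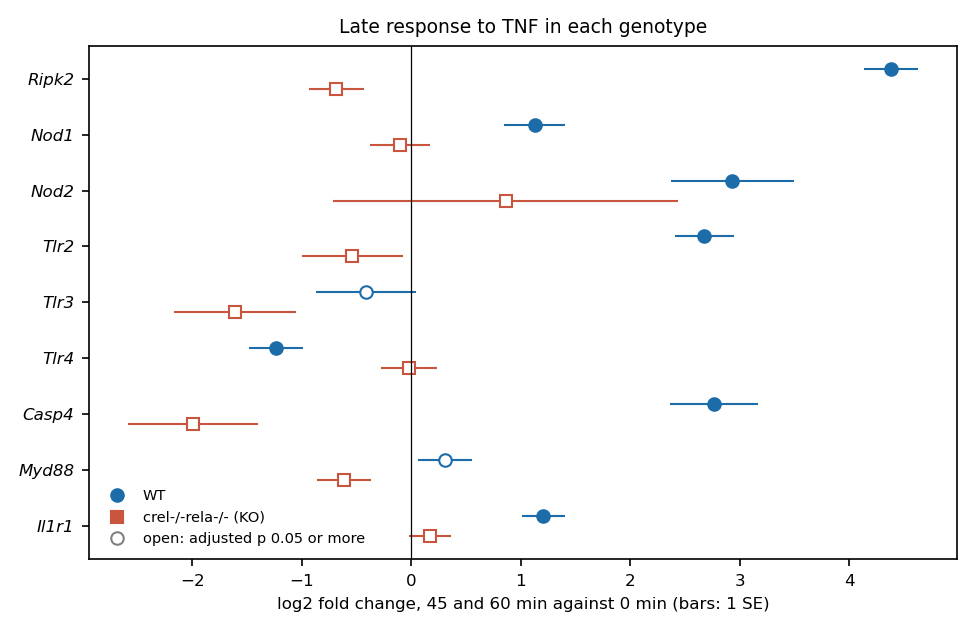
Late log2 fold change (horizontal axis, 45 and 60 min against 0 min) of each gene in WT (blue circles) and KO (red squares), with bars of 1 SE and filled symbols where the adjusted p was under 0.05. The 7 filled WT symbols run from -1.23 for Tlr4 to 4.38 for Ripk2, and every KO symbol is open.

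The direct test of the difference between the late responses called 3 of the 9 genes, Ripk2, Casp4 and Tlr2, all with the higher response in WT, where 0.492% of all genes were called in that direction and 0.00664% in the other. The difference for Tlr2 was 3.21 ± 0.55 (adjusted p 0.0243, edgeR). That call depended on the KO baseline: Tlr2 had 16 counts in the KO library at 0 min and 2 at 15 min. With 15 min as the baseline in both genotypes the difference was -0.51, and with 15 min as the KO baseline alone it was 0.83. In all, the Tlr2 call ended in 7 of 16 alternatives. The others were no filter (3.21), limma-voom (3.18), 0 and 15 min together as the baseline (1.81), and leaving out the KO 45 min library (3.34) or the KO 60 min library (3.09). For Casp4, the call ended in 3 of 16 alternatives, with differences of 3.74 to 5.75 over all of them.

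Levels can be compared between genes only per length of exon. In CPM per kb, the order in unstimulated WT cells was Il1r1 (4.33), Ripk2 (2.67), Myd88 (2.43), Nod1 (2.26), Tlr4 (1.63), Tlr2 (1.04), Tlr3 (0.348), Casp4 (0.341) and Nod2 (0.120). At 45 min in WT, Ripk2 led at 62.5 CPM per kb, ahead of Il1r1 at 9.70 and Tlr2 at 6.79, and Tlr3 was last at 0.244. In KO the spread over the 4 libraries, which differ in time, gave a mean ± SD of 3.92 ± 0.53 CPM per kb for Il1r1, 2.37 ± 0.17 for Nod1 and 2.34 ± 0.52 for Myd88 (n = 4 each). Ripk2 stood at 1.88 ± 0.54 and Tlr4 at 1.08 ± 0.05 CPM per kb. Nod1, Myd88 and Ripk2 overlapped within this spread, as did Tlr2 (0.203 ± 0.108), Casp4 (0.168 ± 0.125) and Tlr3 (0.152 ± 0.087).

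Averaged over the 4 matched times, 5 of the 9 genes were lower in KO than in WT and none was higher (edgeR, time as a block). Among all genes, 9.44% were called lower and 6.81% higher. The 4 times stood in for replicates of each genotype. The genotype p-values, here and for the lists below, therefore measure spread of the genotype difference over time and not between cultures. The median log2 fold change of the 9 was -0.998, against 0.012 for all genes. Nod2 had a log2 fold change of -4.55 ± 0.57 (adjusted p 0.000513, edgeR) and Tlr2 of -4.14 ± 0.42 (adjusted p 0.000144, edgeR). Nod2 entered this test only through the WT 45 and 60 min libraries. Ripk2 was at -3.04 ± 0.83 (adjusted p 0.0328), Casp4 at -2.64 ± 0.66 (adjusted p 0.0222) and Il1r1 at -0.84 ± 0.16 (adjusted p 0.00705, edgeR). The calls of Ripk2 and Casp4 ended with DESeq2 and when any 1 of the 45 or 60 min libraries was left out. Tlr3 (-0.998, adjusted p 0.0595), Nod1 (-0.55, adjusted p 0.0908), Myd88 (-0.29, adjusted p 0.287) and Tlr4 (0.10, adjusted p 0.802) did not pass. In the 45 and 60 min libraries alone, 8 were lower and Tlr4 was higher (0.60, adjusted p 0.0402, edgeR), where 13.1% of all genes were lower and 9.69% higher. That fit has 1 residual degree of freedom.

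The gap between the genotypes opened at different times. At 0 min, 1 of the 9 genes met the 2-fold rule, Tlr2, which was 3.27-fold lower in KO, where 3.37% of all genes were lower by the rule. At 15 min Tlr2 was again the only 1, at 45.2-fold lower on 2 KO counts (log2 interval -8.56 to -3.61; 3.44% of all genes). At 45 min, 5 were lower (Ripk2, Nod2, Tlr2, Casp4 and Il1r1; 5.58% of all genes), and at 60 min Nod1 joined them (5.7%). Ripk2 was 41.8-fold lower in KO at 45 min and 36.6-fold lower at 60 min. Nod2, at 0 counts in KO at 60 min, was at least 22.1-fold lower there against a floor of 3 counts. Tlr4 was 1.53-fold lower in KO at 0 min (log2 interval -1.003 to -0.23) and 1.60-fold higher at 60 min (0.15 to 1.22), neither of which reached 2-fold. These ratios compare 2 libraries each, and their intervals cover counting error only.

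**Figure D3:**
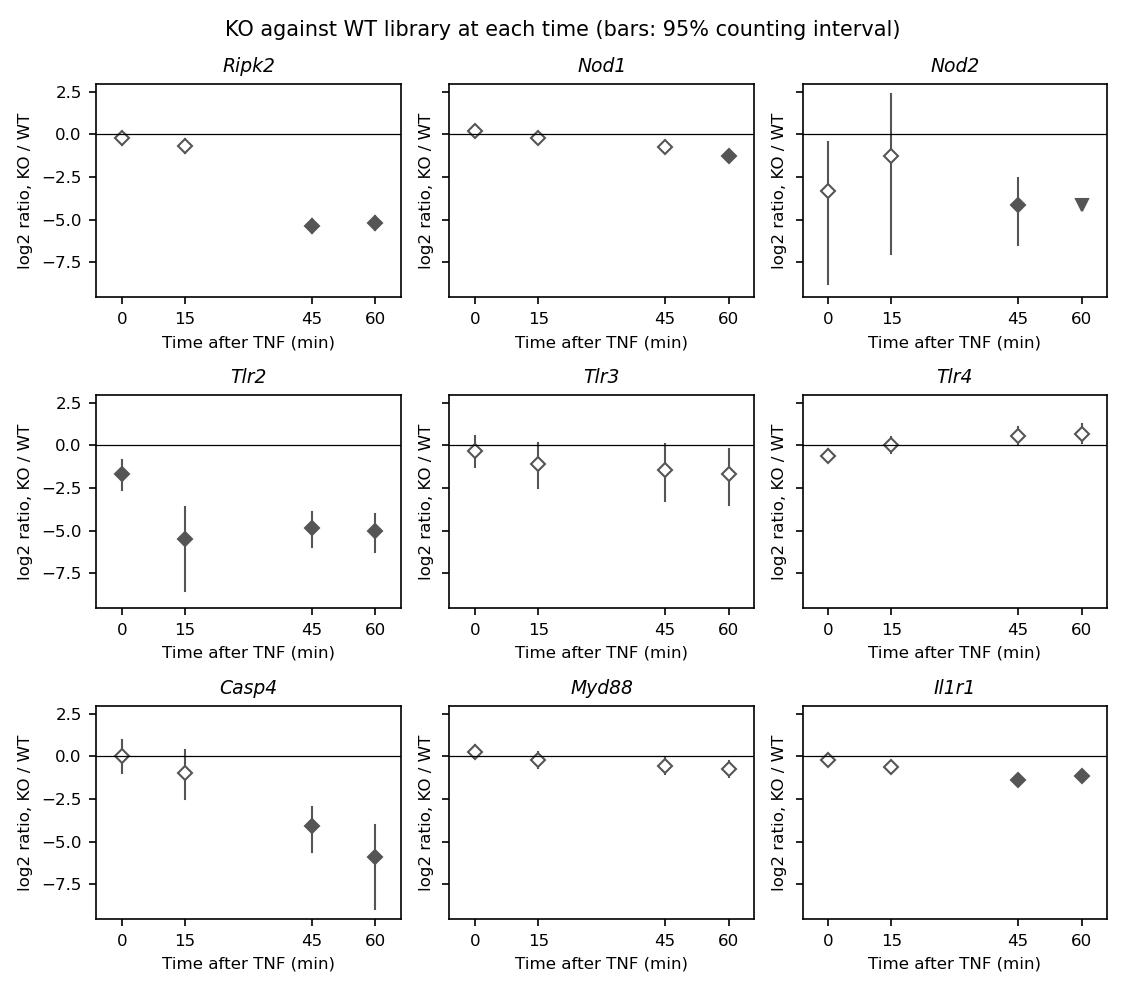
Ratio of the KO to the WT library on a log2 scale (vertical axis, common to all panels) at each time after TNF in min, with bars for the 95% counting interval, filled diamonds where the 2-fold rule was met and a triangle at the upper bound for Nod2 at 60 min, where KO had 0 counts. Ripk2 and Casp4 lie near 0 at 0 min and below -4 at 45 and 60 min, while Tlr2 is below 0 at every time.

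The macrophage markers moved with genotype beside these genes: 16 of 17 were called lower in KO (edgeR), with a median log2 fold change of -4.85. The share of all genes called lower was 9.44%. Adgre1, Lyz2, Ptprc, Tyrobp, Itgam, C1qa and C1qb, among the markers, passed the filter only through WT libraries, so their calls are not independent of it. Macrophages also express Tlr2, Tlr4, Nod2, Casp4 and other receptors of these families, and the part of the macrophage markers in the genotype differences was not tested. At 0 min, when the markers summed to 118 CPM in WT and 9.32 CPM in KO, the counting intervals of 4 of the 9 genes lay below equal levels in KO. Nod2 was 10.0-fold lower there, on 9 counts in WT and 1 in KO (log2 interval -8.78 to -0.47). Tlr2 was 3.27-fold, Tlr4 1.53-fold and Il1r1 1.16-fold lower. The intervals of Casp4, Ripk2, Nod1, Myd88 and Tlr3 included equal levels. Over time in WT the markers summed to 118, 100, 101 and 84.2 CPM, and none of the 17 was called in the late WT response (edgeR), with 4 lower at an unadjusted p under 0.05. The cartilage markers fell in KO after 0 min, with 4 of 5 tested called lower, where 0.518% of all genes were. The part of the KO 0 min library in the KO responses was not tested beyond the change of baseline given above.

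The other genes of these pathways were taken from lists by role. Of 15 other TLRs and coreceptors tested, none was called in the late WT response by edgeR, DESeq2 or limma-voom. At an unadjusted p under 0.05 there were 3 (Tlr1, Lbp and Hsp90b1), of which Tlr1, a partner of Tlr2, had a value of 1.72 ± 0.71 (adjusted p 0.209, edgeR). In the genotype comparison 11 of the 15 were lower in KO, led by Cd180, a TLR-like protein of B cells and macrophages (64, 45, 37 and 47 counts in WT, 1, 1, 0 and 0 in KO), and Tlr7, the receptor for single-stranded RNA (-4.44 ± 0.43, adjusted p 0.000111, edgeR). Among all genes, 9.44% were called lower. Cd180, Tlr7, Tlr8, Tlr9 and Tlr13, among others, passed the filter only through WT libraries, so their calls are not independent of it. The count was 9 of 15 with DESeq2, and 1 of 3 tested with a filter of at least 50 counts in 2 libraries. The macrophage markers were lower in KO in the same comparison, as given above, and their part in these values was not tested.

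Of 22 adaptors and kinases that act below the TLRs and the interleukin-1 receptor, 3 rose late in WT and none fell. Among all genes, 4.17% were called higher and 1.31% lower. Map3k8, the kinase that links these receptors to ERK, had exonic counts of 123, 236, 915 and 779 in WT, against 150, 90, 73 and 85 in KO, a WT change of 2.89 ± 0.22 (adjusted p 1.2e-05, edgeR). Traf3, a ubiquitin ligase of interferon and NF-kB signalling, changed by 1.75 ± 0.31 (adjusted p 0.00514, edgeR). Ticam2, the adaptor that couples Tlr4 to interferon induction, had exonic counts of 0, 6, 14 and 13 in WT, against 3, 2, 0 and 0 in KO (adjusted p 0.0224, edgeR). It passed the filter only through the WT 45 and 60 min libraries, in which it was called high. That call ended in 3 of the 12 alternatives that tested it: no filter, 15 min as the baseline, and 0 and 15 min together. Its log2 fold change ran from 1.15 to 6.83 over them. The late responses of Map3k8 (difference 3.45 ± 0.30, adjusted p 0.000149) and Traf3 (2.30 ± 0.42, adjusted p 0.0324, edgeR) differed between genotypes. The Map3k8 call held in 16 of 16 alternatives, while that of Traf3 ended in 5: DESeq2, limma-voom, no filter, 15 min as the baseline, and without the KO 45 min library. Over all times 7 of the 22 were lower in KO and 1 higher, with Pik3ap1, a TLR adaptor to PI3 kinase, at -5.11 ± 0.38 and the ubiquitin ligase Peli2 at -0.64 ± 0.14 (adjusted p 0.0122, edgeR), where 9.44% of all genes were lower. Pik3ap1 had exonic counts of 78, 62, 60 and 64 in WT, against 5, 1, 0 and 1 in KO, and passed the filter only through WT libraries. The macrophage markers were lower too, and their part was not tested. The count of 7 was 2 with DESeq2, 3 with no time block and 12 with total counts. It ran from 1, without the KO 45 min library, to 7 when each library was left out: 2 without WT 45 min, 3 without WT 60 or KO 60 min, and 4 without WT 15 or KO 15 min.

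Of 23 genes of NOD signalling, 3 rose late in WT, where 4.17% of all genes were called higher: Tnfaip3, Birc3 and Birc2. Tnfaip3 encodes A20, which removes ubiquitin chains from Ripk2, and changed by 5.39 ± 0.35, from 109 counts at 0 min to 1086 at 15 min and 5115 at 45 min. Birc3 changed by 2.80 ± 0.23 and Birc2 by 1.64 ± 0.19, and both encode ligases that act on Ripk2 complexes. For all 3 the response differed between genotypes, by 5.09 ± 0.55 for Tnfaip3 (adjusted p 0.000693), 3.23 ± 0.32 for Birc3 (adjusted p 0.000318) and 1.85 ± 0.25 for Birc2 (adjusted p 0.00535, edgeR). The call of the difference held in 16 of 16 alternatives for Birc3. It ended for Birc2 and Tnfaip3 with 15 min as the baseline and with no filter, and for Tnfaip3 also with 0 and 15 min together. Over all times 10 of the 23 were lower in KO and none higher, with Slc15a3, a transporter of bacterial peptides, at -4.92 ± 0.33 and Nlrc5, a NOD-like receptor that drives MHC class I genes, at -1.80 ± 0.19 (edgeR), where 9.44% of all genes were lower. Slc15a3 had exonic counts of 51, 74, 67 and 51 in WT, against 1, 2, 1 and 3 in KO, and passed the filter only through WT libraries. So did Card9, also called lower, at 10, 14, 20 and 7 counts in WT against 4, 6, 2 and 3 in KO. The calls of both are not independent of the filter, and that of Card9 ended in 10 of 17 alternatives. The macrophage markers were lower in KO as well, and their part was not tested. The count was 5 with DESeq2 or no time block, 5 without the WT 60 or KO 60 min library, and 4 without the WT 45 or KO 45 min library.

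Of 18 inflammasome genes and inflammatory caspases tested, 4 rose late in WT and Nek7, a kinase needed by the Nlrp3 inflammasome, fell (-0.81 ± 0.19, adjusted p 0.0266, edgeR). Of all genes, 4.17% were called higher and 1.31% lower. Gbp5, a guanylate-binding protein, had exonic counts of 7, 11, 158 and 318 in WT, against 1, 1, 0 and 0 in KO. Beside the WT 45 and 60 min libraries only WT 15 min reached 10 counts. The late WT call of Gbp5 is therefore not independent of the filter. Ninj1, which ruptures the plasma membrane in lytic death, changed by 2.32 ± 0.28 (adjusted p 0.000401, edgeR). The Nek7 call ended in 5 of 16 alternatives, one of them without the WT 60 min library, and that of Gsdmd, described next, in 3 of 16. Gsdmd, the substrate of caspase-11, had exonic counts of 136, 142, 252 and 310 in WT, against 61, 35, 29 and 31 in KO, a WT change of 1.16 ± 0.23 (adjusted p 0.0122, edgeR). None of the 18 was called in the difference between responses by edgeR, DESeq2 or limma-voom, with 3 at an unadjusted p under 0.05 (Gsdmd, Ninj1 and Gbp3), and the value for Gsdmd was 1.81 ± 0.38 (adjusted p 0.0623, edgeR). Over all times 14 of the 18 were lower in KO, with Gbp5 at -7.49 ± 0.60 and Nlrp1b, an inflammasome sensor, at -7.08 ± 0.48 (edgeR), where 9.44% of all genes were lower. Nlrp1b, at 53, 69, 65 and 28 counts in WT against 1, 0, 0 and 0, and Nlrp3, at 26, 106, 102 and 45 against 0 in each KO library, were lower in KO together with the macrophage markers, 16 of 17 of which were lower in KO. The part of those markers was not tested. Gbp5, Nlrp1b, Nlrp3, Nlrp1a, Nlrc4, Naip2, Naip6 and Aim2 passed the filter only through WT libraries, so their genotype calls are not independent of it. With at least 50 counts in 2 libraries, 9 of 12 tested genes were lower in KO, and with no filter 17 of 25.

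In the interleukin-1 family 3 of 7 tested genes rose late in WT: Il1rl1, the receptor for interleukin-33 (2.09 ± 0.22), Il1rl2, and Il18rap, a chain of the interleukin-18 receptor (1.26 ± 0.32, adjusted p 0.0414, edgeR). The share of all genes called higher was 4.17%. The Il18rap call ended in 8 of 16 alternatives, and leaving out the WT 45 or KO 45 min library was enough to end it. Il1rl1 also rose in KO, by 1.60 ± 0.21 (adjusted p 0.00479, edgeR), the only call in KO among the 6 lists and the 9 genes. It had exonic counts of 249, 396, 1112 and 852 in WT, against 255, 249, 604 and 590 in KO. Over all times 4 of the 7 were lower in KO, with Il1rn, the interleukin-1 receptor antagonist, at -1.11 ± 0.13 and Il33 at -2.00 ± 0.38 (edgeR). Il33 passed the filter only through WT libraries. Of 13 genes of nucleic acid sensing, Ikbke, a kinase that activates interferon regulatory factors, rose late in WT (0.76 ± 0.18, adjusted p 0.0314, edgeR), and its response differed between genotypes by 1.44 ± 0.26 (adjusted p 0.0297, edgeR). The shares of all genes called were 4.17% higher late in WT and 0.492% with the higher response in WT. The WT call of Ikbke ended in 5 of 16 alternatives, with DESeq2, both total-count scalings, no filter and without the WT 60 min library, and the call of its difference in 4 of 16, one of them without the KO 45 min library. Over all times 8 of the 13 were lower in KO, with Ifih1, a sensor of double-stranded RNA, at -1.54 ± 0.13 and the ubiquitin ligase Trim25 among them. These 2 counts stand against 9.44% of all genes lower in KO and 16 of 17 macrophage markers lower, whose part was not tested. The interleukin-1 count of 4 was 2 with no time block and without the WT 45, KO 45 or KO 60 min library.

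**Figure D4:**
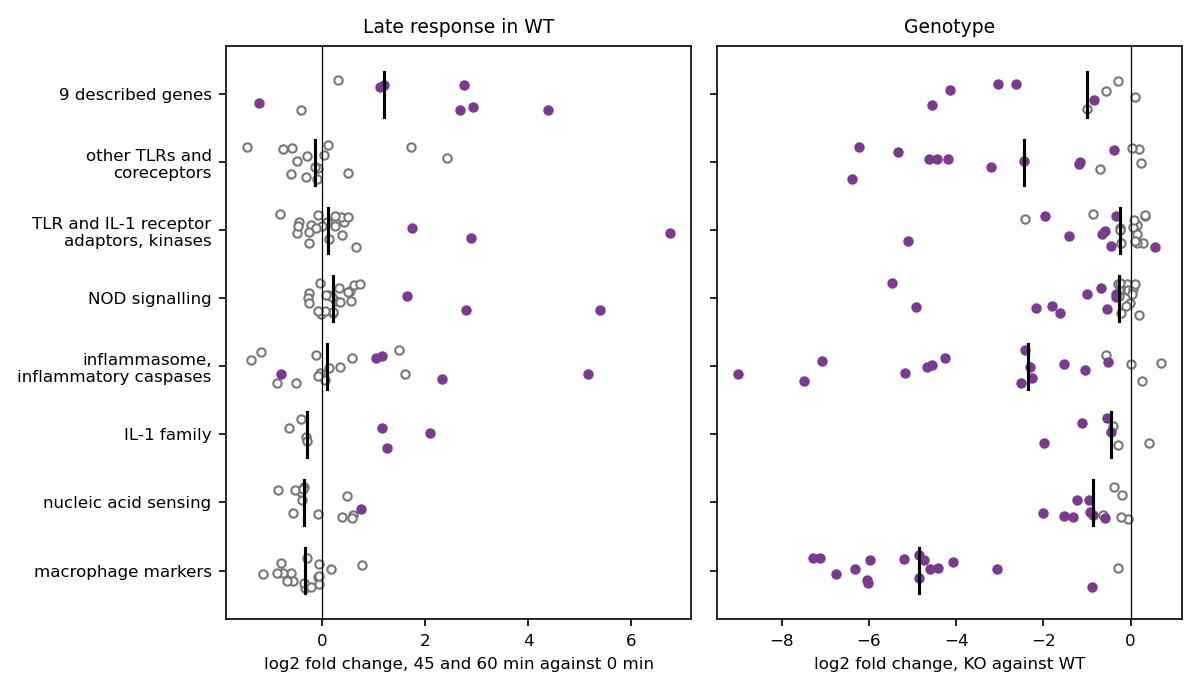
Log2 fold change (horizontal axes) of every tested gene of each list, in the late WT response on the left and in KO against WT on the right, with filled points where the adjusted p was under 0.05 and a black line at each list's median. The 9 described genes have a median of 1.21 on the left, the macrophage markers have no filled point there, and on the right the macrophage markers have a median of -4.85.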

How the data were processed

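Chromatin-associated RNA of 8 libraries was sequenced, after ribosomal RNA depletion and stranded library synthesis, as 50-base single-end reads, per the labels' protocols. The authors deposited whole-number counts per gene, with mm10 coordinates and exon lengths, per the file headers. The submitters' processing notes name STAR, DESeq2, cutadapt 1.12 and featureCounts 1.5.0. The sources used here do not give the strand setting or the handling of multiply mapped reads. Symbols were matched by gene identifier (98.77% of rows).

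Here, 15049 genes passed a filter of 10 counts in 2 libraries. TMM factors ran from 0.818 to 1.21. The test was the quasi-likelihood test of edgeR 4.0.16 (R 4.3.3). The late responses came from 1 fit of 6 cell means (45 and 60 min as 1 late group, 2 residual degrees of freedom), and genotype from a fit with time as a block (3). SE is the log2 fold change over the square root of F. No 2 libraries were duplicates. Nothing says that libraries came from separate cultures. Alternatives were DESeq2 1.42.0, limma-voom 3.58.1, other scalings, filters and baselines, fewer times, and each library left out in turn. The 9 genes and the lists were chosen with earlier results of these data known. Outside the 9, named genes are up to 4 per list with the smallest p among those called late in WT. The same rule gave up to 2 for genotype, and those called in the difference were added. Tlr1, Lbp, Hsp90b1, Gbp3, Card9 and Nlrp3 were named after their values were seen. Fits were tested on simulated data.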

Additional observations from a re-analysis of the deposited data

Results flagged for a closer look

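The late response to TNF differed between WT and KO, by the test of the difference itself (edgeR), for 3 of the 9 genes. The difference, WT minus KO on the log2 scale, was 5.06 for Ripk2, 4.75 for Casp4 and 3.21 for Tlr2. Of these, Ripk2 and Casp4 had equal levels in the 2 genotypes at 0 min within counting error, and Tlr2 did not.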

How the results depend on the processing

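The WT response of Ripk2, Tlr2 and Casp4 was called higher under every alternative run. Of the 9 genes, the number called lower late in WT was 0 with DESeq2, without the filter and with 15 min as the baseline. In KO, 1 (Casp4) was called lower late with total counts, and 0 to 1 when each library was left out, 1 without the WT 60 min library (Casp4 at -2.00). For the difference between responses, 1 was called higher without the filter, with 15 min as the baseline, and with 15 min as the KO baseline alone, an alternative chosen after seeing the data. There were 2 with limma-voom and with 0 and 15 min together as the baseline. Leaving out each library gave 2 to 4: 2 without the KO 45 or KO 60 min library, and 4 without WT 45 min, where Nod1 passed (1.52). With 15 min as the baseline, the Tlr2 difference was -0.51. The cause was not tested. For genotype, 3 were lower with DESeq2, 2 to 7 when each library was left out (2 without the WT 45 or WT 60 min library, 3 without the KO 45 or KO 60 min library), and 8 lower and 1 higher in the 45 and 60 min libraries alone. Over all genes, the number called late in WT ran from 248 to 1097 higher and 30 to 572 lower. Late in KO it ran from 8 to 706 higher and 9 to 438 lower. For the difference it ran from 14 to 179 higher and 0 to 19 lower, and for genotype from 360 to 1459 higher and 708 to 2898 lower. Scaling by total counts moved the median of all genes by about -0.21 in both late responses and -0.17 for genotype. No paired analysis by replicate number was possible because each genotype and time had 1 library. The genotype comparison matched WT and KO by time, and without that time block 4 of the 9 were lower, the Il1r1 call having ended (adjusted p 0.0562). Depth limits Nod2, Tlr2, Tlr3 and Casp4 in KO, where 0 to 21 counts stand behind each value. Without the WT 45 or WT 60 min library, Nod2 did not pass the filter and was not tested.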
